A study of Homo sapiens with 22 samples.

Results

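PTPRC, CORO1A, LAPTM5, CD14 and CSF1R are genes best known from white blood cells, and here their RNA was counted in SK-N-AS and GIMEN, a pair of established human lines of neuroblastoma. They are 5 of the 35237 gene symbols in the count table. They were chosen by name, with PTPRC and CORO1A picked because their counts were high in untreated SK-N-AS cells and low after 30 days of treatment. Those values are therefore given as a description, without a test, and the same holds for the other 3 genes in that comparison.

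The study followed both lines through treatment with PP121, a kinase inhibitor, and bufalin, a cardiac steroid that blocks the sodium pump. Untreated SK-N-AS cells (4 libraries) grew in DMEM with 10% fetal bovine serum (FBS). The group S1D4 (4 libraries) had 4 days of 5 µM PP121 in DMEM with 1% FBS. The groups S2D4 and S2D30 (4 libraries each) were S1D4 cells moved to Neurobasal medium with B27 supplement, 5 µM PP121 and 100 nM bufalin, for 4 and 30 days. Untreated GIMEN cells (3 libraries) grew in RPMI with 10% FBS, and the group GIMEN D30 (3 libraries) had 30 days of 2.5 µM PP121 and 10 nM bufalin in RPMI with 1% FBS. S1D4 and GIMEN D30 differed from untreated cells of their line in both drug and serum. S2D4 and S2D30 differed from S1D4 in bufalin, medium and time on PP121. Within each comparison these shares cannot be told apart. The 2 lines also got different doses in different media. Library totals ran from 16456484 to 37506800 counts, and the labels do not say whether libraries of a group came from separate cultures, so p-values measure the spread between these libraries, which may be technical. Both lines are labelled mesenchymal. In untreated GIMEN, 5 markers of the mesenchymal state (PRRX1, VIM, FN1, SNAI2 and YAP1) summed to between 36767 and 38381 CPM (counts scaled to a library of 1e+06), most of it FN1, with a mean of 31481 CPM. Markers of the adrenergic state were mixed there: PHOX2A was at 0 and DBH at 4 counts or fewer, while HAND2 averaged 363 CPM and GATA3 60.2 CPM. In untreated SK-N-AS the same mesenchymal markers summed to between 818 and 1322 CPM, and PHOX2A averaged 146 CPM, DBH 76.6 CPM, HAND2 578 CPM and GATA3 131 CPM.

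PTPRC encodes CD45, a receptor-type tyrosine phosphatase that covers the surface of almost all nucleated blood cells and sets the activity of Src-family kinases. CORO1A encodes coronin 1A, an actin-binding protein of leukocytes, and LAPTM5 a lysosomal membrane protein of the same cells. CD14 binds bacterial lipopolysaccharide and hands it to the receptor TLR4, and CSF1R is the receptor tyrosine kinase that macrophages need for survival. Neuroblastoma arises from the neural crest, not from blood precursors.

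Promoter sequence is shown for PTPRC and CORO1A, which were both high in untreated SK-N-AS and low in S2D30, and for CSF1R, whose level moved in opposite directions in the 2 lines. Sequences are from RefSeq on GRCh38.p14, where all 5 genes had a window of 250 bases before a transcript start. The stretches are on the strand of the gene, 5′ to 3′, without bases that GENCODE 29 places in an exon, and capitals mark a motif found by its letters.
PTPRC, chr1:198638790-198638967, plus strand, no motif found: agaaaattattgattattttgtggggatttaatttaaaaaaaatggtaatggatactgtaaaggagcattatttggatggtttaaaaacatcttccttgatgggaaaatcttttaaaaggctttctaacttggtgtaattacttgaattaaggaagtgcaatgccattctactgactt
CORO1A, chr16:30183352-30183421, plus strand, GC box: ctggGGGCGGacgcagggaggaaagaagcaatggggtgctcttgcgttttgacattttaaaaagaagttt
CSF1R, downstream start, chr5:150086608-150086804, minus strand, RUNX-like word: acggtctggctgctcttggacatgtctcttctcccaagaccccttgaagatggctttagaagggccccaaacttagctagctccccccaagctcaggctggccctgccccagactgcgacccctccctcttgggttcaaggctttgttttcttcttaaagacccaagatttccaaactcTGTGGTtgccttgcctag
CSF1R, upstream start, chr5:150113373-150113615, minus strand, GC box and AP-1 word: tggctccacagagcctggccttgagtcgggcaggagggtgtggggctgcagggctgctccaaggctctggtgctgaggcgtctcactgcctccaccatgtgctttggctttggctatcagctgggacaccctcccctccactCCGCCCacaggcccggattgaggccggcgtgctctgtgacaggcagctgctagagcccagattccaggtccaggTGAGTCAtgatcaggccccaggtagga

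The motifs searched, on both strands, were GAGGAAG (PU.1-like), TGTGGT (RUNX-like), TGANTCA (AP-1) and GGGCGG (GC box). They were in 11.2%, 10.98%, 6.57% and 42.6% of the 35116 windows of RefSeq. The PTPRC and CORO1A windows differ in base composition: G and C made up 31.2% of the 250 bases before the PTPRC start and 68% before the CORO1A start, against a median of 58% over all windows. The PTPRC window held 1 CpG and the CORO1A window 23, against a median of 11. The whole CORO1A window held 3 GC boxes, and the PTPRC window held none of the 4 motifs. The downstream CSF1R window, at the start used in macrophages, also held the PU.1-like word, which lies in an exon and is not printed. A match is a description of letters and no evidence of binding, and the counts are per gene, so they do not say which CSF1R start was used.

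In untreated SK-N-AS, PTPRC had the highest level of the 5 genes. It spans chr1:198638457-198757476 on the plus strand (GENCODE 29, GRCh38), and no other annotated gene shares its exon bases or any of its 75-base words. In the 4 untreated SK-N-AS libraries PTPRC stood at 168, 173, 158 and 206 CPM, from between 3312 and 6814 counts per library. Its mean of 177 ± 20.9 CPM (SD, n = 4) was above that of 97.4% of all rows of the table. S1D4 held 50.5, 49.98, 65.4 and 62.2 CPM, and S2D4 held 23.7, 24.4, 23.9 and 22.7 CPM. In S2D30 the values were 0.526, 0.819, 1.36 and 0.695 CPM, from 12 to 30 counts per library. The 4 SK-N-AS groups thus descended from untreated through S1D4 and S2D4 to S2D30 without any overlap of their libraries.

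Against untreated SK-N-AS, PTPRC was 3.10-fold lower in S1D4 (log2 fold change −1.65, SE 0.14), 7.46-fold lower in S2D4 (−2.93, SE 0.14) and 208-fold lower in S2D30 (−7.73, SE 0.20), none of which was tested because the choice of the gene used the untreated level. The step from S1D4 to S2D4, which the choice did not use, was tested. PTPRC fell by 1.28 on the log2 scale there (SE 0.14, adjusted p = 1.04e-06 by edgeR's quasi-likelihood test with Benjamini-Hochberg adjustment over all genes), and each S2D4 library lay below each S1D4 library. Over all 15810 genes tested, 26.8% were called lower in this step, 55.1% were called in either direction, and the libraries of 49.5% did not overlap. For the comparisons with untreated cells, the share of genes called was 40.1% in S1D4 (38.2% without overlap), 63.1% in S2D4 (51.2% without overlap) and 70.3% in S2D30 (66.4% without overlap). RNA was measured in bulk, so fewer cells with the transcript and less of it per cell cannot be told apart.

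GIMEN had little PTPRC RNA before treatment. Its untreated libraries held 0.877, 0.638 and 1.41 CPM (13 to 25 counts), and the D30 libraries held 0.294, 0.698 and 0.321 CPM (5 to 11 counts). The 2 groups overlapped, and PTPRC passed the filter on low counts through the untreated libraries, so the difference between them is a description. The adjusted p of 0.0460 (edgeR, log2 fold change −1.17, SE 0.48) passed the threshold of 0.05, against 36% of genes called lower in this comparison, but it did not pass with DESeq2 (adjusted p = 0.119) or without untreated replicate 3 (0.201), among other settings. Untreated SK-N-AS stood 181-fold above untreated GIMEN (log2 7.53, SE 0.22, not tested, in a comparison that called 73.6% of genes and left 74.9% without overlap), while S2D30, at 0.850 ± 0.360 CPM (n = 4), overlapped untreated GIMEN at 0.976 ± 0.396 CPM (n = 3).

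**Figure D1:**
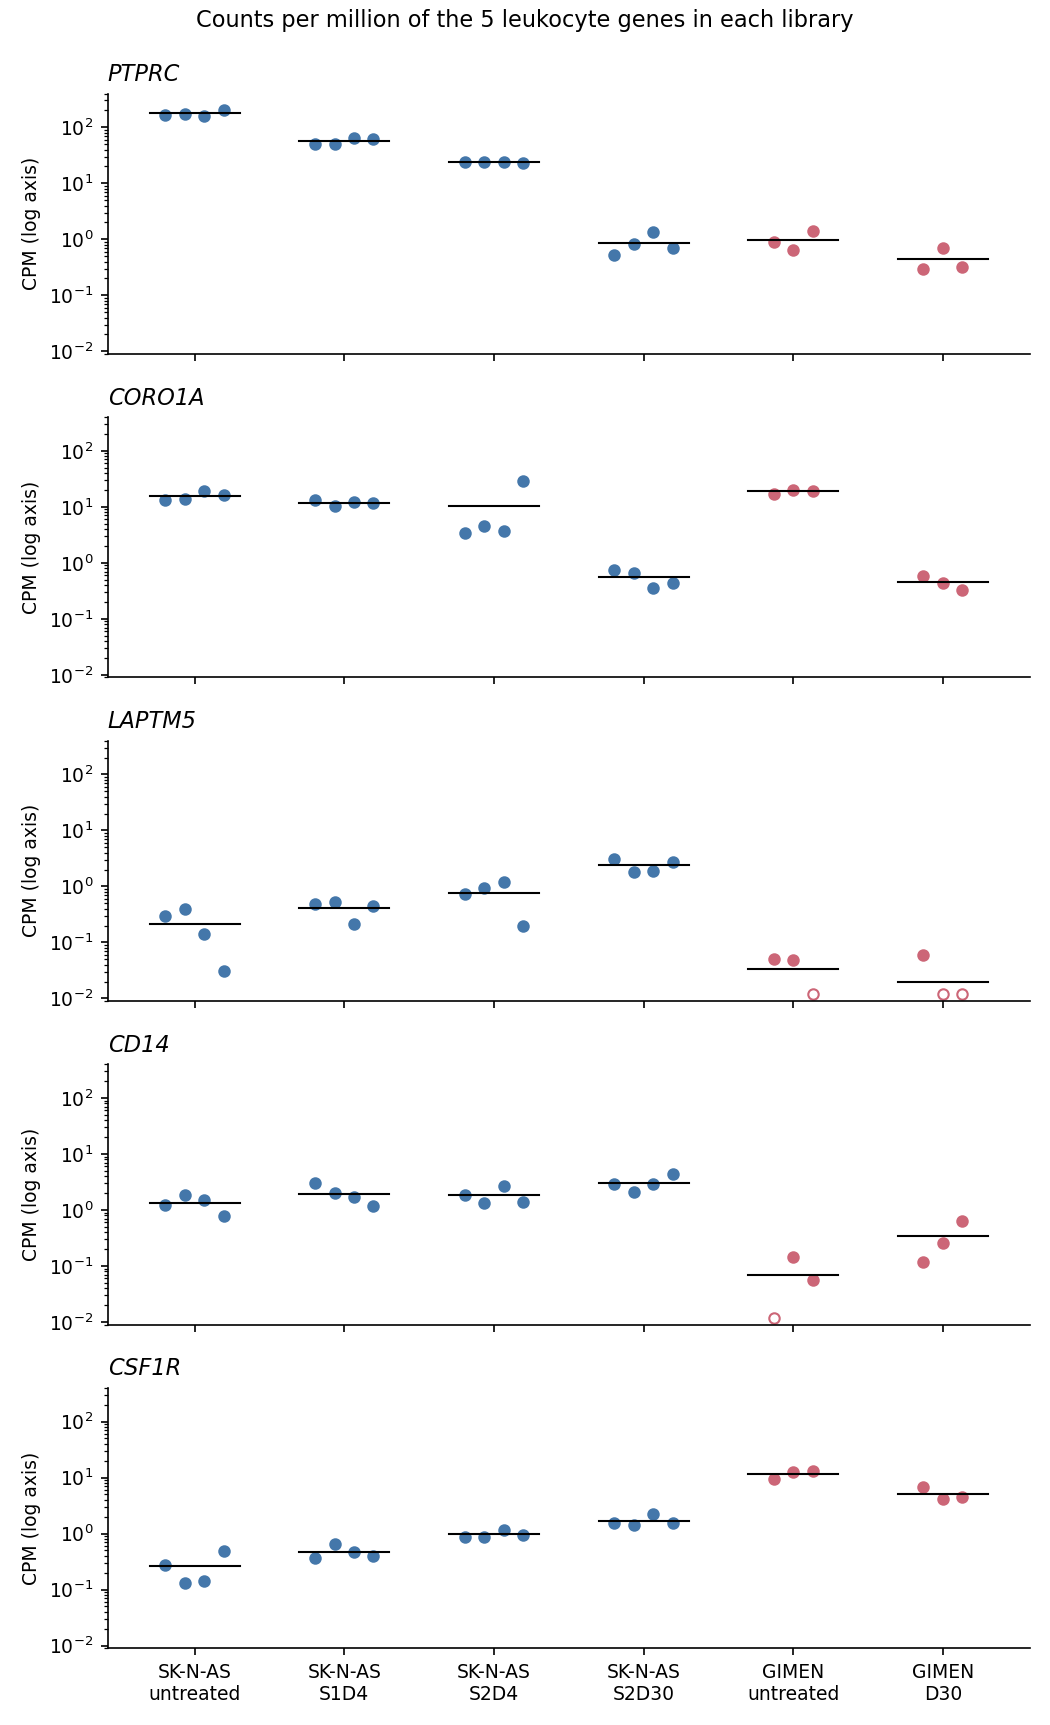
CPM (log axis) of the 5 genes in each of the 22 libraries, with 1 point per library, a bar at the group mean and open points at the bottom for libraries with 0 counts. PTPRC descends through the 4 SK-N-AS groups from a mean of 177 to 0.850 CPM, CORO1A drops at 30 days in both lines, and in S2D4 a lone CORO1A library stands at 28.99 CPM.

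CORO1A was present in both untreated lines and low in both after 30 days. The gene lies at chr16:30182827-30189076 on the plus strand, where 11.1% of its exon bases are opposite an annotated antisense transcript, AC012645.3. Reads of the 2 cannot be told apart if the counting ignored strand, which the sources used here do not state. Untreated SK-N-AS held 13.2, 13.9, 18.9 and 16.4 CPM and untreated GIMEN 17.2, 20.1 and 19.3 CPM, which overlapped (log2 difference −0.26, SE 0.14, not tested). S2D30 held 0.745, 0.665, 0.362 and 0.434 CPM, 28.3-fold below untreated cells (log2 −4.85, SE 0.66, not tested). GIMEN D30 held 0.587, 0.444 and 0.321 CPM. This second line was not used to choose the gene, and there CORO1A fell by 5.38 on the log2 scale (SE 0.20). That was a 41.9-fold difference, lower in 3 of 3 libraries. It is given as a description without p, since in GIMEN the gene passed the filter on low counts through the untreated libraries. The S2D30 and GIMEN D30 libraries overlapped.

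The course of CORO1A between these points turned on a single library. S1D4 held 13.3, 10.4, 12.2 and 11.8 CPM, which overlapped the untreated range (log2 −0.41, SE 0.50, not tested). In S2D4 the first 3 replicates held 3.35, 4.50 and 3.76 CPM and replicate 4 held 28.99 CPM from 895 counts, the highest value of all 22 libraries. With all 4 libraries the S2D4 mean was 10.2 ± 12.6 CPM (SD) and the change from S1D4 was −0.22 on the log2 scale (SE 0.50, adjusted p = 0.733, edgeR). Without replicate 4 the S2D4 mean was 3.87 ± 0.583 CPM (n = 3) and the change was −1.63 (adjusted p = 7.82e-07). Without 1 of the other 3 replicates it was between 0.02 and 0.07, with the sign reversed. Against untreated cells the S2D4 difference was −0.63, and −2.04 without replicate 4. That library also correlated less with the rest of its group over all expressed genes (mean r = 0.968) than the other 3 did (0.982 to 0.983), whereas its PTPRC level of 22.7 CPM was close to theirs.

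LAPTM5 was at the edge of detection and moved the other way. The gene lies at chr1:30732469-30757820 on the minus strand. Untreated SK-N-AS libraries held 0.297, 0.393, 0.143 and 0.0305 CPM, from 1 to 12 counts each. The values were 0.482, 0.518, 0.211 and 0.443 CPM in S1D4, and 0.745, 0.922, 1.22 and 0.194 CPM in S2D4. In S2D30 they were 3.07, 1.79, 1.90 and 2.69 CPM, from 35 to 70 counts, and lay above every other library of the series. The S2D30 mean was 10.9-fold above the untreated mean (log2 3.40, SE 0.55, not tested). At S2D4 LAPTM5 rose by 1.75 (SE 0.57, adjusted p = 0.0138, edgeR) against untreated cells although the libraries overlapped, and without S2D4 replicate 3 the difference was 1.42 (adjusted p = 0.0562). That rise is a description, since LAPTM5 passed the filter on low counts through treated groups, where it is higher. The earlier steps gave 0.90 for S1D4 against untreated (SE 0.60, adjusted p = 0.253) and 0.85 for S2D4 against S1D4 (SE 0.54, adjusted p = 0.197, or 1.21 with 0.0372 without S2D4 replicate 4). In GIMEN no library had more than 1 count of LAPTM5, which is below the floor of 3 counts per library used here, and it was not tested there.

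CD14 was low in SK-N-AS and close to undetected in GIMEN. It lies at chr5:140631728-140633701 on the minus strand. Untreated SK-N-AS held 1.21, 1.84, 1.53 and 0.793 CPM, S1D4 3.01, 1.98, 1.69 and 1.20 CPM, and S2D4 1.86, 1.36, 2.68 and 1.39 CPM. These 3 groups overlapped one another. S2D30 held 2.94, 2.10, 2.85 and 4.47 CPM, above each untreated library (log2 1.18, SE 0.34, not tested). The S1D4 difference from untreated cells was 0.54 (SE 0.34, adjusted p = 0.230, edgeR), the S2D4 difference was 0.42 (SE 0.35, adjusted p = 0.304), and S2D4 against S1D4 gave −0.12 (SE 0.34, adjusted p = 0.780). None of these 3 differences was told apart from the spread between libraries. Untreated GIMEN libraries had 0, 3 and 1 counts and D30 libraries 2, 4 and 10 counts, too few for a test. CD14 was at least 8.54-fold higher in untreated SK-N-AS than in untreated GIMEN, counted against the floor of 3 counts in each GIMEN library (higher in 4 of 4 libraries). That difference is a description, since the gene passed the filter on low counts through SK-N-AS alone.

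CSF1R was the member that was higher in GIMEN and that changed in opposite directions in the 2 lines. It lies at chr5:150053291-150113372 on the minus strand. Untreated GIMEN held 9.59, 12.5 and 12.9 CPM, from 186 to 254 counts, and GIMEN D30 held 6.87, 4.12 and 4.43 CPM. Untreated SK-N-AS held 0.272, 0.131, 0.143 and 0.488 CPM, from 3 to 16 counts. The line difference was 45.1-fold (log2 −5.36 for SK-N-AS minus GIMEN, SE 0.34), in a comparison that called 34.4% of genes lower in SK-N-AS. That line difference is a description, since the gene passed the filter on low counts through GIMEN alone. In GIMEN, CSF1R fell by 1.20 on the log2 scale at 30 days (SE 0.20, adjusted p = 2.18e-04, edgeR), lower in 3 of 3 libraries.

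In SK-N-AS the CSF1R values were 0.361, 0.659, 0.464 and 0.399 CPM in S1D4, 0.884, 0.868, 1.18 and 0.939 CPM in S2D4, and 1.53, 1.43, 2.26 and 1.52 CPM in S2D30. S1D4 overlapped untreated cells and the later groups stood above each earlier library. In SK-N-AS the gene passed the filter on low counts through these later groups, so the differences that follow are a description. The S1D4 difference was 0.76 (SE 0.38, adjusted p = 0.125, edgeR), or 1.23 with 0.0150 without untreated replicate 4. From S1D4 to S2D4 CSF1R rose by 1.03 (SE 0.35, adjusted p = 0.0192), which did not pass without S1D4 replicate 1 (0.0574), S1D4 replicate 4 (0.0504) or S2D4 replicate 3 (0.0546). Against untreated cells it rose by 1.79 at S2D4 (SE 0.36, adjusted p = 3.82e-04), and it stood 2.59 higher at S2D30 (SE 0.35, 6.53-fold, not tested). Even so, the S2D30 mean of 1.69 ± 0.387 CPM (n = 4) stayed below the GIMEN D30 mean of 5.14 ± 1.504 CPM (n = 3), and no library of the 2 groups overlapped. The opposite direction of the 30-day change in the 2 lines was not tested as a difference.

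**Figure D2:**
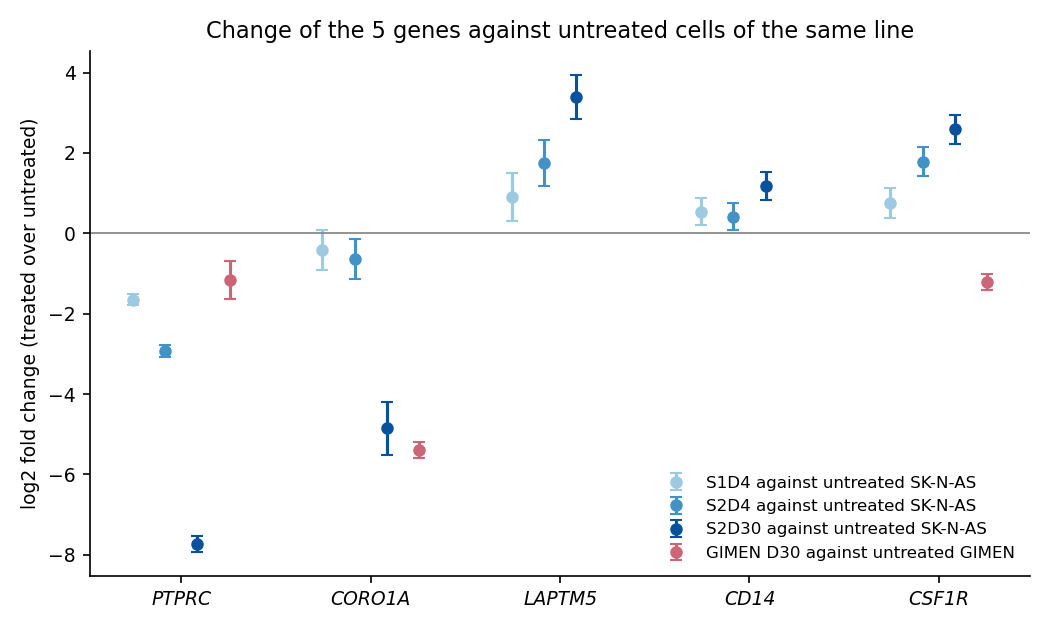
Log2 fold change of each gene against untreated cells of the same line, with bars of 1 standard error from the edgeR model; LAPTM5 and CD14 were not tested in GIMEN and have no GIMEN point. PTPRC and CORO1A lie below 0 in both lines at 30 days (−7.73 and −4.85 in SK-N-AS, −1.17 and −5.38 in GIMEN), while CSF1R lies above 0 in SK-N-AS (2.59) and below it in GIMEN (−1.20).

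The 5 genes did not all move in 1 direction. In the SK-N-AS fit, LAPTM5 and CSF1R passed the filter on low counts through treated groups, where they are higher, and in GIMEN CORO1A and PTPRC passed it through untreated libraries, so the counts of members here are a description. In S2D30 against untreated SK-N-AS 2 were lower and 3 higher, and the libraries overlapped for none of the 5, where 66.4% of the genes tested did not overlap and 70.3% were called. In S2D4 against S1D4, 2 of the 5 passed the test, PTPRC lower and CSF1R higher, beside 55.1% of all genes. In S2D4 against untreated cells 2 of the 3 that could be tested passed, both higher, beside 30.9% of all genes called higher and 32.2% called lower. In S1D4 the same 3 had adjusted p-values from 0.125 to 0.253, beside 17.6% of all genes called higher and 22.4% lower. In GIMEN D30, 3 of the 3 tested were lower, beside 36% of all genes called lower and 71.4% called either way, with 75.4% of genes without overlap. Per kilobase of exon, the level in untreated SK-N-AS was 19.3 CPM for PTPRC, 3.20 for CORO1A, 0.711 for CD14, 0.0659 for LAPTM5 and 0.0502 for CSF1R. In untreated GIMEN on the same scale CORO1A came first at 3.88 CPM per kilobase and CSF1R next at 2.26. Across the 16 SK-N-AS libraries, which share their groups, log2 CPM of PTPRC correlated with CORO1A at r = 0.919 and with LAPTM5 at −0.885, given as a description.

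Other genes that define white blood cells were measured beside the members. The pan-leukocyte markers CD53, CD48, SPI1, IKZF1, ITGB2 and NCKAP1L together summed to between 2.81 and 3.15 CPM in untreated SK-N-AS, where PTPRC alone had 158 to 206 CPM. SPI1, the PU.1 factor of myeloid and B cells, had at most 6 counts in any of the 22 libraries, and CD53 at most 3 counts in an untreated SK-N-AS library. The T cell markers CD3D, CD3E and CD2 were at 0 in every untreated SK-N-AS library, and MS4A1 of B cells was too. CD79A, also of B cells, had 3 to 4 counts per library there. Of the myeloid markers LYZ, TYROBP, FCER1G, CD163 and AIF1, both TYROBP and AIF1 were at 0, and the 5 summed to between 0.275 and 0.655 CPM. CD53, CD48, SPI1, IKZF1, ITGB2 and NCKAP1L were each detected in at least 1 of these libraries. Whether other cells had a part in the PTPRC level was not tested.

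The most abundant of those 6 pan-leukocyte markers in untreated SK-N-AS was IKZF1, the Ikaros transcription factor of lymphoid cells, which is described here after its values were seen. It had 37 to 64 counts in untreated SK-N-AS (1.85 ± 0.329 CPM, n = 4), 1.84 ± 0.440 CPM in S1D4, and 1 to 3 counts per library in S2D30, at least 13.4-fold lower, given without a test. In S2D30 the pan-leukocyte markers summed to between 1.38 and 1.95 CPM. The myeloid markers summed to between 2.48 and 3.44 CPM there, of which CD163, a scavenger receptor of macrophages, made up 2.59 ± 0.486 CPM (41 to 70 counts), while TYROBP stayed at 0 and AIF1 at 1 count or fewer. In untreated GIMEN the pan-leukocyte markers summed to between 0.980 and 1.24 CPM and the myeloid ones to between 0.196 and 0.508 CPM.

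Wider lists of 150 further genes were read in the same way. Of the 90 that could be tested in SK-N-AS, 24 were higher and 11 lower in S1D4 than in untreated cells, where 17.6% of all genes were higher and 22.4% lower. The counts were 35 and 18 in S2D4 (37 and 23 without its replicate 4), where the shares over all genes were 30.9% and 32.2%, and 42 and 21 in S2D30, where they were 33.8% and 36.5%. In GIMEN D30, 31 of 70 were higher and 16 lower, beside 35.5% and 36% of all genes. Between the untreated lines 31 of 80 were higher in SK-N-AS and 34 in GIMEN, beside 39.2% and 34.4% of all genes. A low gene could be tested only where some group was high enough to pass the filter, which fixes its direction when the other group is near 0, so these counts are a description. Many list genes were hardly seen. Of the 30 pan-leukocyte genes, 14 stayed below 1 CPM in the mean of every group, as did 15 of 25 monocyte and macrophage genes, 15 of 21 T and NK cell genes and 9 of 12 B cell genes. In S2D30 against untreated cells, 19 pan-leukocyte genes could be tested, of which 3 rose and 4 fell, where 33.8% of all genes rose and 36.5% fell. RAC2, a small GTPase of blood cells, was called higher at each stage, with a mean of 30.3 ± 7.58 CPM before treatment, 73.5 ± 4.36 at S1D4, 111 ± 33.9 at S2D4 and 156 ± 12.9 at S2D30 (n = 4 each, S2D30 adjusted p = 1.55e-08, edgeR). LCP1, the actin bundler L-plastin, went from 0.534 ± 0.282 to 67.5 ± 3.17 CPM (log2 6.83, SE 0.51). It entered the test through treated groups, so no p is given. ARHGAP9, a GTPase-activating protein of leukocytes, was also lower, from 17.6 ± 7.17 CPM to 0.250 ± 0.0306 (log2 −6.13, SE 0.32). Most of that step lay between S1D4 (11.1 CPM) and S2D4 (0.376 CPM), where PTPRC still averaged 23.7 CPM. ARHGAP9 entered the test through untreated and S1D4 libraries, so no p is given, and 10.3% of its exon bases lie opposite other annotated genes. The tetraspanin gene CD37 fell from 11.03 ± 9.69 to 3.78 ± 0.909 CPM (adjusted p = 0.00308), with the untreated libraries spread from 5.12 to 25.5 CPM. The list's median log2 change was 0.38, against −0.03 over all genes tested.

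Some pan-leukocyte genes were seen in 1 line and not the other. SRGN, the proteoglycan of leukocyte granules, stood at 203 ± 7.17 CPM in untreated GIMEN (n = 3) and had at most a stray count in SK-N-AS, at least 1842-fold lower. INPP5D, the lipid phosphatase SHIP1, stood at 16.4 ± 0.808 CPM in GIMEN and at the floor in SK-N-AS, at least 150-fold lower. RAC2 and ARHGAP9 were at the floor in GIMEN, at least 192-fold and 112-fold below SK-N-AS. Others were seen in both: SPN averaged 4.48 CPM in untreated SK-N-AS and 1.28 CPM in untreated GIMEN, and DOCK2 1.33 and 1.66 CPM. In GIMEN D30, 8 of the list could be tested, with 2 higher and 4 lower, beside 35.5% and 36% of all genes. SRGN (131 ± 11.03 CPM, adjusted p = 8.21e-06, edgeR) and INPP5D (8.95 ± 0.8289 CPM, adjusted p = 1.86e-05) were among those that fell.

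In the monocyte and macrophage list, 1 of 25 genes averaged 1 CPM or more in untreated SK-N-AS. In S2D30, 7 of 9 that could be tested rose, beside 33.8% of all genes, but genes such as S100A9 and CD163 entered the test through the later groups alone, so the count does not bear on the direction of the list. ITGAX, the integrin CD11c, went from 0.329 ± 0.177 CPM to 25.4 ± 3.45, and entered the test through treated groups, so no p is given. S100A9, a calcium-binding protein of myeloid cells, went from at most 1 count per library to 10.5 ± 2.69 CPM, at least 95.6-fold. The scavenger receptor CD68 went from 13.2 ± 4.61 to 123.05 ± 27.4 CPM (adjusted p = 9.01e-09), but 73.8% of its 75-base words are shared with overlapping transcripts, so its counts are uncertain. In GIMEN D30, 3 of 5 tested rose, beside 35.5% of all genes. They were ITGAX, from 0.381 ± 0.0542 to 15.4 ± 11.8 CPM, MS4A7, a membrane protein of macrophages, from 0.247 ± 0.135 to 27.5 ± 11.9 CPM, and CD68. ITGAX and MS4A7 entered this test through GIMEN D30, so no p is given for them. CD33, a sialic acid receptor of myeloid cells, stood at 17.2 ± 1.44 CPM in untreated GIMEN and 0.207 ± 0.157 CPM in untreated SK-N-AS. It entered the test through GIMEN, so no p is given.

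In the lymphocyte lists few genes could be tested. Of the T and NK cell list, 6 were tested in S2D30, with 5 higher and 1 lower, beside 33.8% and 36.5% of all genes. GZMB, the protease granzyme B, went from 0 counts to 1.53 ± 0.155 CPM, at least 13.9-fold, and could be tested through S2D30 alone, so no p is given. LAT, a T cell adaptor, went from 8.75 to 21.0 CPM, but 37.8% of its 75-base words are shared with overlapping transcripts. Of 4 B cell genes tested, CD22, a sialic acid receptor of B cells, went from 0.517 ± 0.356 to 10.3 ± 1.08 CPM, given without p since it entered through treated groups. POU2AF1, a transcriptional coactivator of B cells, fell from 18.9 ± 2.97 to 9.10 ± 0.594 CPM (adjusted p = 4.75e-06, edgeR). CR2 went from 0.201 to 0.560 CPM and also entered through treated groups, so no p is given. Of these 4 B cell genes, 2 were called higher and 1 lower, beside 33.8% and 36.5% of all genes. In GIMEN D30 CD22 went from at most 3 counts per library to 5.22 ± 0.902 CPM, at least 33.2-fold.

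**Figure D3:**
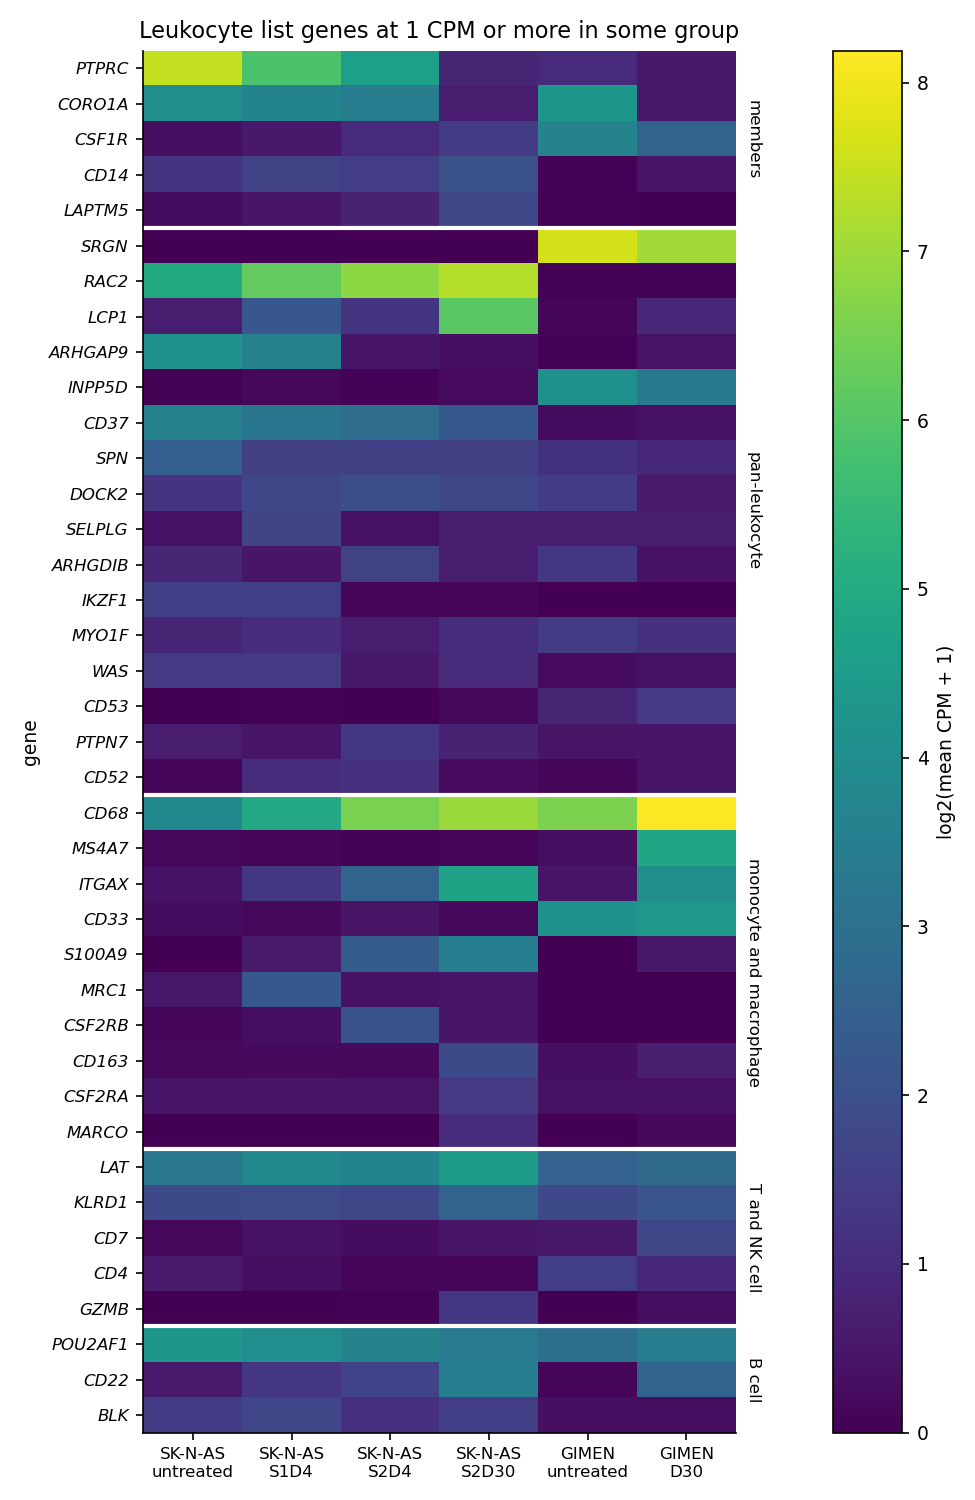
Group means, as log2 of mean CPM plus 1, of the 5 members and of the genes of the 4 leukocyte lists that reached 1 CPM in some group and are reported here, 1 row per gene and 1 column per group. PTPRC is the brightest member in untreated SK-N-AS (177 CPM), SRGN is bright in the 2 GIMEN columns alone (203 and 131 CPM), and RAC2, LCP1, CD68 and ITGAX brighten towards S2D30.

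CD45 acts on Src-family kinases, and of 14 genes of its substrates and regulators 10 averaged 1 CPM or more in untreated SK-N-AS. LCK, its best known substrate in T cells, had at most 2 counts in any of those libraries. Of the 14 genes, 11 were tested in S2D30, with 5 higher and 5 lower, beside 33.8% and 36.5% of all genes. CSK, the kinase that inhibits Src-family kinases, fell from 174 ± 18.5 to 91.2 ± 1.61 CPM (adjusted p = 7.70e-09, edgeR), and SRC fell from 102 ± 4.45 to 47.4 ± 1.28 CPM (adjusted p = 3.03e-05). JAK1 fell from 94.95 to 81.3 CPM (adjusted p = 0.0113), and YES1 rose from 72.7 to 88.9 CPM (adjusted p = 0.0320) although its libraries overlapped. In GIMEN D30, 4 of 10 rose and 3 fell, beside 35.5% and 36% of all genes. LGALS1, a lectin that binds CD45, fell from 1727 ± 89.5 to 710 ± 77.7 CPM (adjusted p = 1.11e-07), and PAG1, an adaptor that recruits CSK, rose from 12.0 to 28.6 CPM (adjusted p = 3.18e-06).

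CSF1R has CSF1 and IL34 as its ligands. CSF1 went from 9.28 ± 2.36 CPM before treatment to 16.04 ± 3.77 at S1D4, 15.1 ± 3.88 at S2D4 and 40.04 ± 2.05 at S2D30 (n = 4 each, log2 2.07 for S2D30, SE 0.20, adjusted p = 8.44e-08, edgeR). In GIMEN it rose from 78.4 ± 4.07 to 493 ± 79.3 CPM (n = 3, log2 2.62, SE 0.10, adjusted p = 1.70e-09), where the receptor gene fell. Of the 8 genes of the ligand and adaptor list that were tested in S2D30, 5 rose and 2 fell, beside 33.8% and 36.5% of all genes. The adaptor gene GRB2 rose from 175 to 265 CPM (adjusted p = 7.95e-07) and SHC1 fell from 755 to 379 CPM (adjusted p = 0.00238). In GIMEN D30, 3 of 8 rose, close to the 35.5% of all genes. IL34, named after its values were seen, had at most 2 counts in an untreated SK-N-AS library and 4 to 9 in S2D30, and went from 10 to 24 counts in untreated GIMEN to 1 to 3 in GIMEN D30.

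In the CD14 and TLR4 pathway, 5 of 9 tested genes rose and 2 fell in S2D30, beside 33.8% and 36.5% of all genes. IRAK1, a kinase below the receptor, rose from 406 ± 12.7 to 707 ± 30.0 CPM (adjusted p = 8.48e-06, edgeR) and the adaptor gene MYD88 fell from 24.9 to 20.2 CPM (adjusted p = 0.00483). TLR4 itself was 3.67 ± 0.684 CPM untreated and 3.82 ± 0.484 in S2D30 (adjusted p = 0.954), after 6.82 ± 1.56 CPM in S1D4, which was higher than untreated (adjusted p = 0.00503). LY96, the MD-2 subunit that TLR4 needs to bind lipopolysaccharide, was named after its values were seen: it went from at most 2 counts per library to 2.49 ± 0.670 CPM, at least 22.7-fold, given without a test. In GIMEN TLR4 rose from 21.8 ± 1.73 to 68.9 ± 11.4 CPM (adjusted p = 2.67e-07) while IRAK1 fell from 386 ± 8.79 to 237 ± 35.1 CPM (adjusted p = 2.46e-05), and LY96 had at most 3 counts in any GIMEN library.

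CORO1A is 1 of 7 coronin genes, and its relatives followed other courses. CORO2B, a coronin of the nervous system, rose from 13.2 ± 4.24 CPM untreated to 72.2 ± 9.45 in S1D4 and 229 ± 19.1 in S2D4, and stood at 154 ± 3.57 in S2D30 (n = 4 each, S2D30 log2 3.51, SE 0.18, adjusted p = 3.04e-11, edgeR). CORO6 fell from 32.8 ± 6.37 CPM to 1.39 ± 1.17 at S2D4 (adjusted p = 2.95e-08), while in GIMEN it was 41.7 ± 1.36 and 39.1 ± 2.05 CPM (adjusted p = 0.135). The broadly expressed CORO1C rose from 109 to 166 CPM in S2D30 (adjusted p = 8.34e-07) and fell from 444 to 317 CPM in GIMEN D30 (adjusted p = 9.41e-06). In S2D30, 2 of the 6 relatives rose and 3 fell, beside 33.8% and 36.5% of all genes. In GIMEN D30, 2 of 5 fell, beside 36% of all genes.

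PTPRC belongs to the receptor tyrosine phosphatases, of which 16 others were tested in S2D30, with 7 higher and 2 lower, beside 33.8% and 36.5% of all genes. PTPRN, a phosphatase-like protein of secretory granules, rose from 24.2 ± 9.04 to 3649 ± 35.1 CPM (log2 7.20, SE 0.27, adjusted p = 1.00e-12, edgeR), a change close in size and opposite in sign to that of PTPRC. PTPRM rose from 9.93 to 65.7 CPM (adjusted p = 1.55e-11) and PTPRK fell from 49.4 to 29.5 CPM (adjusted p = 2.84e-05). In GIMEN D30, 11 of 15 rose and 2 fell, beside 35.5% and 36% of all genes. PTPRN again rose there, from 216 ± 7.32 to 1748 ± 261 CPM (adjusted p = 5.52e-10). The relatives of LAPTM5 were expressed at far higher CPM: LAPTM4A rose from 118 ± 14.0 to 337 ± 27.9 CPM in S2D30 (adjusted p = 5.40e-10) and from 186 to 313 CPM in GIMEN D30 (adjusted p = 7.17e-07), whereas LAPTM4B fell from 310 to 214 CPM (adjusted p = 3.44e-04) and from 170 to 139 CPM (adjusted p = 8.84e-04).

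**Figure D4:**
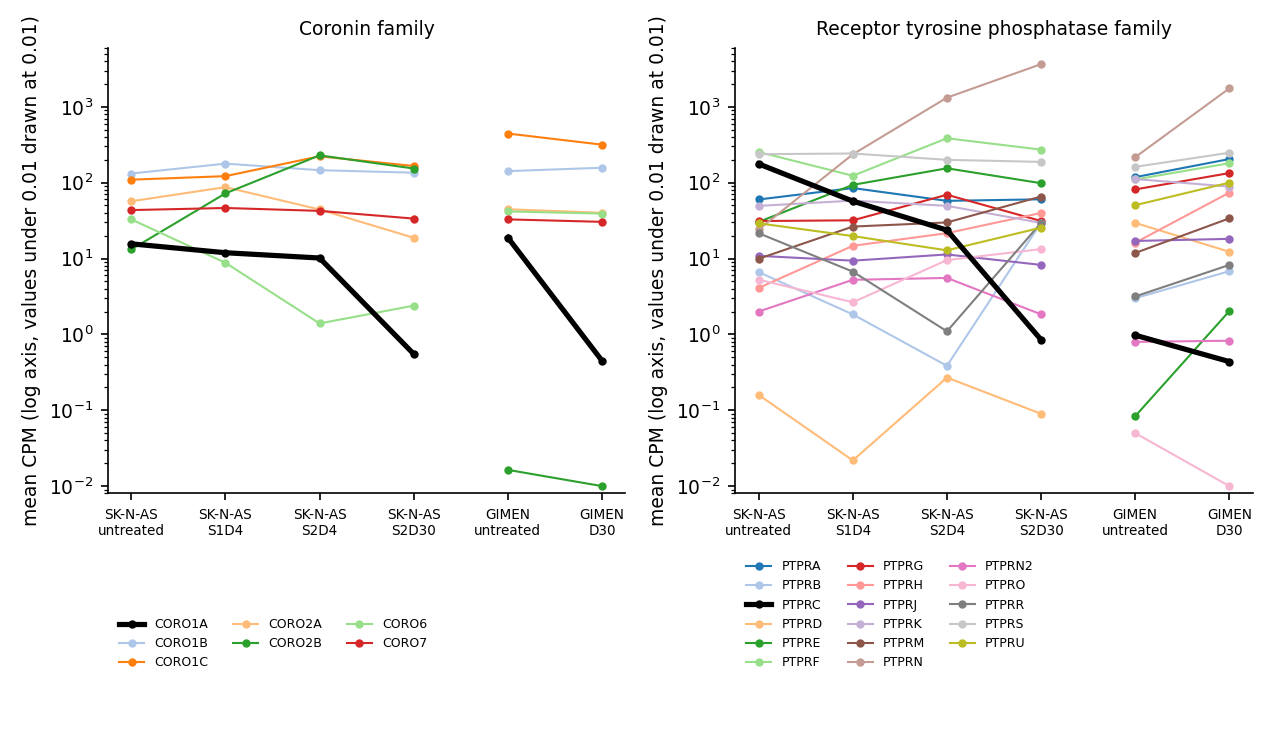
Mean CPM (log axis, means under 0.01 drawn at 0.01) of the coronin genes and of the receptor tyrosine phosphatase genes in the 6 groups, with CORO1A and PTPRC in black. PTPRC drops to 0.850 CPM in S2D30 while PTPRN climbs to 3649 CPM, and CORO1A sits at 0.552 CPM in S2D30 and 0.451 CPM in GIMEN D30.

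The genes with the pattern most like PTPRC over the 22 libraries, by Pearson correlation of log2 CPM among 13953 genes, were DACH1 (r = 0.980), ADAMTS19 (0.980), SNX4 (0.976), EMID1 (0.975) and NELL2 (0.975). DACH1 went from 83.1 CPM untreated to 65.8, 30.3 and 3.45 CPM through the SK-N-AS groups and was 1.78 CPM in untreated GIMEN. NELL2 went from 52.5 to 35.3, 13.8 and 1.56 CPM and was 0.696 CPM in untreated GIMEN. The closest to CORO1A were DTL (r = 0.968), DDAH1 (0.968), POLQ (0.966), HJURP (0.959) and BLM (0.957). Of these, DTL, POLQ, HJURP and BLM act in DNA replication, repair or chromosome segregation of dividing cells. DTL went from 69.6 CPM in untreated SK-N-AS to 29.8, 20.02 and 2.001 CPM, and from 72.9 to 1.61 CPM in GIMEN. In S2D4, where CORO1A ran from 3.35 to 28.99 CPM, DTL ran from 14.2 to 32.8 CPM. These correlations rest on 6 groups rather than on independent samples, and the order moved among the 16 SK-N-AS libraries alone. There the 5 genes ranked from 26 (ADAMTS19) to 84 (SNX4) for PTPRC and from 30 (DDAH1) to 180 (BLM) for CORO1A, with POLQ at 87 and HJURP at 168. With a prior count of 0.5, ADAMTS19 ranked 14 and EMID1 31 for PTPRC. Whether dividing cells had a part in the CORO1A difference was not tested.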

How the data were processed

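RNA was sequenced in 22 libraries as paired reads on an Illumina HiSeq X, per the labels' protocols. The authors deposited raw counts per gene symbol; values were whole numbers. Aligner, counting tool, genome build and strand setting are not given in the sources used here. Differences were fitted to these counts by edgeR 4.0.16 (R 4.3.3): filterByExpr (minimum count 10, minimum total 15), TMM scaling, the quasi-likelihood F-test, and Benjamini-Hochberg adjustment with a threshold of 0.05, in models of the 16 SK-N-AS libraries (15810 genes), the 6 GIMEN libraries (13517) and the 7 untreated libraries (15101). CPM used 1 TMM scaling of all 22 libraries. A group was at the floor when no library had over 3 counts; folds against it are bounds computed from 3 counts per library, and cover counting error only. On simulated counts of 15521 genes for S1D4 against untreated SK-N-AS, the test found 80% of 2-fold and 99% of 4-fold changes. The changed genes were drawn from those with a mean of at least 1 CPM, so these shares do not cover genes with lower means.

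The members and gene lists were chosen with earlier results of these data known. List genes were named if among the 4 highest of their list, or the 4 highest called in a comparison; exceptions are stated. Alternatives included DESeq2 1.42.0, other scalings and filters, a replicate block and leaving out each library. Exon overlaps and 75-base words come from GENCODE 29. A few list genes are not reported here by name.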

Additional observations from a re-analysis of the deposited data

Results flagged for a closer look

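CORO1A in S2D4 replicate 4 stood at 28.99 CPM, against 3.35 to 4.50 CPM in the other 3 libraries of its group, a gap wide enough to mark that library as apart from the rest. CSF1R in S2D30 replicate 3 stood at 2.26 CPM, against 1.43 to 1.53 CPM in the other 3. Libraries were compared in this way for each of the 5 genes in each SK-N-AS group, which gave 20 sets of 4 values. Of these, 2 held a library apart, where chance alone gives about 1 in 20. The sets reuse the same 16 libraries and are not independent, and the GIMEN groups of 3 were not compared. For CSF1R the log2 fold change at 30 days came to 2.59 in the SK-N-AS line, against −1.20 for GIMEN, with every treated library above each untreated one in the first line and below in the other. That difference between the lines was not tested, and the lines had different doses and media.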

How the results depend on the processing

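Alternatives were run for the values of the 5 genes, the counts of called genes and the correlations. Of these, 717 were the same, 12 no longer passed the threshold, 3 newly passed and 4 changed sign. For a tested gene, the same meant direction and call. For an untested gene it meant a shift within the spread of its libraries, for counts one within 1.5 times, and for correlations a small shift, so the 717 are not all calls. The fall of PTPRC in GIMEN D30 missed the threshold with upper-quartile scaling (−1.12, adjusted p = 0.0540), no filter (−1.20, 0.0594), the replicate block (−1.15, 0.0771) and DESeq2 (−1.20, 0.119), and ran from −1.66 to −0.82 when single libraries were left out. Leaving out single libraries, S2D4 against S1D4 ran from −1.63 to 0.069 for CORO1A (0.069, 0.022 and 0.052 without S2D4 replicates 1, 2 and 3), from −0.37 to 0.16 for CD14 (0.16 without S1D4 replicate 1), from 0.52 to 1.21 for LAPTM5 and from 0.92 to 1.23 for CSF1R. S1D4 against untreated ran from 0.56 to 1.23 for CSF1R, and S2D4 against untreated from 1.37 to 2.13 for LAPTM5. CD14 between the untreated lines ran from 3.61 to 5.39, the highest without GIMEN replicate 2. The cause was not tested, except that the CORO1A values follow from the 1 high library. No count of called genes moved by over 1.5 times. Replicate numbers may pair the libraries of S1D4 and untreated SK-N-AS in part, which the main models ignored. There, deviations of same-numbered libraries from their group means correlated at 0.274, 0.266, 0.0436 and 0.293, and 6 of 8 libraries correlated best with their own number. Elsewhere these correlations lay between −0.101 and 0.103, and 1 of 8 to 4 of 8 libraries matched their own number best in the other SK-N-AS comparisons. The block changed no other call of a member and moved the genes called in S1D4 against untreated from 2786 to 2880 higher. Upper-quartile scaling shifted the median of all genes by 0.13 between the lines, and no called list gene changed sign under it or under DESeq2 size factors. LAPTM5, CD14 and CSF1R rest on few counts in SK-N-AS, which limits what can be seen there.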
